A study of Rattus norvegicus with 9 samples.

Results

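A set of 29 Schwann cell and myelin genes was followed in the transcriptomes of rat knee tissue. The genes were taken by name from the table of 17602 genes, all 29 were found, and all 29 were among the 16512 genes with a TPM above 0 in 3 or more of the 9 libraries, which were tested. TPM (transcripts per 1000000) is a level per transcript length, scaled to the same total in every library. All animals were wild-type (WT) male Lewis rats, 10 to 12 weeks old. The 3 groups of 3 libraries each were compared as follows. The intact group was synovium around the medial meniscus of rats without surgery. In the sham group the same tissue was taken 1 week after the joint capsule had been opened and closed. In the pMx group the anterior part of the medial meniscus had been removed (partial meniscectomy, pMx), and the tissue regrowing there was taken after 1 week, with the synovium around it cut away. The pMx and sham groups thus differed in both the surgery and the tissue. The labels call the 3 libraries of a group biological replicates without tying them to single animals, so the p-values below measure the spread between these libraries.

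Schwann cells are the glia of peripheral nerves. Myelinating Schwann cells wrap single large axons in a compact lipid-rich sheath, while non-myelinating (Remak) Schwann cells hold bundles of thin axons such as those for pain. The factor Sox10 is needed throughout the lineage and switches on Egr2 (Krox20), which drives the myelin genes. After nerve injury, Schwann cells shut down myelin genes and take on a repair state with genes of immature cells such as Ncam1, Gfap and Ngfr. The synovium is supplied by sensory and sympathetic nerve fibers. The genes were grouped by role into 12 genes of the myelin sheath, 6 genes of non-myelinating and repair cells, 6 lineage genes and 5 genes of axon-glia contact. Many of them are not made by Schwann cells alone: Pmp22 and Cnp are made in many cell types, and S100b also by fat cells and chondrocytes.

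Most of the set was at a lower level in the regenerating tissue than in sham synovium, with genes of each role among those that fell. In pMx versus sham, 9 of the 29 genes fell, namely Mbp, Mal, Cldn19, Cdh19, Gfra3, Scn7a, Sox10, S100b and Cadm3, and 1 rose, Ncam1. A gene was called where its adjusted p from limma was below 0.05 and its log2 fold change on the log2(TPM + 1) scale was above 1 in size. By this rule 4.85% of all genes tested were called lower and 3.36% higher. With the adjusted p alone, 22 of the 29 were lower (18.9% of all genes) and 2 were higher (17.7%). In 23 of the 29 genes every pMx library was below every sham library, which held for 29.0% of all genes, and in 2 every pMx library was above (27.0%). The median pMx mean was 31.2% of the sham mean over the set and 98.8% over all genes tested. In 14 of the 29 genes the pMx mean was under 25% of the sham mean, against 6.95% of all genes with a sham value above 0. In tissue measured as a whole, fewer cells of a type and less RNA per cell cannot be told apart. Because the scale adds 1 to every TPM, it understates the fold of genes near 1 TPM. With a pseudocount of 0.1 in place of 1, 20 of the 29 genes were called lower, against 8.43% of all genes (5.07% were called higher).

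**Figure D1:**
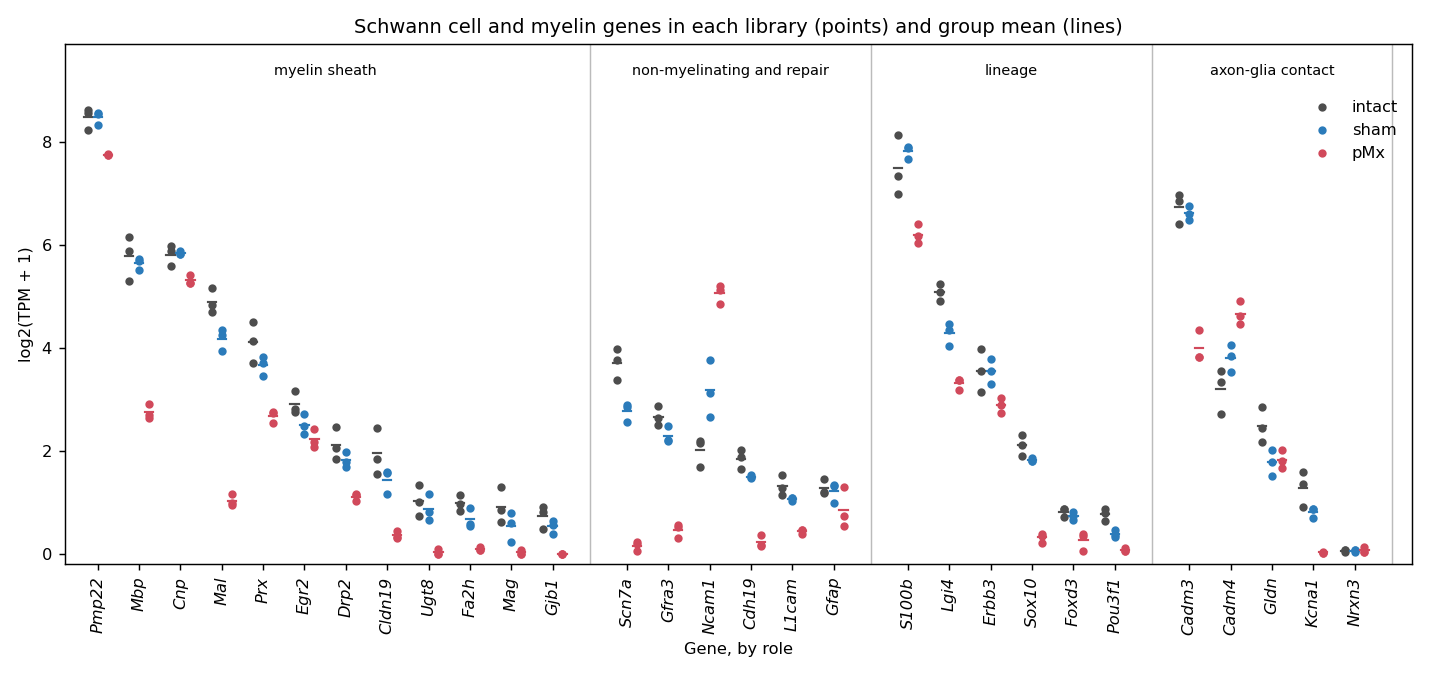
Level of each of the 29 genes as log2(TPM + 1) on the vertical axis, with genes ordered by role and by their intact mean on the horizontal axis. Each point is 1 library of the intact (grey), sham (blue) or pMx (red) group and each short line is the mean of 3 libraries; the pMx points lie below the sham points for 23 genes and above them for Ncam1 and Cadm4.

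The 12 genes of the myelin sheath had a median log2 fold change of -0.72 in pMx versus sham, against -0.01 over all genes tested. Of these, 3 fell, 7 more were lower by the adjusted p alone and 2 missed it. Mbp (gene identifier 24547) encodes myelin basic protein, which holds the cytoplasmic faces of the sheath together. Its level was 57.87, 70.51 and 38.07 TPM in the intact libraries, 52.01, 44.46 and 50.32 TPM in the sham libraries and 5.46, 6.48 and 5.23 TPM in the pMx libraries. All pMx libraries were far below the other 6, and the log2 fold change in pMx versus sham was -2.89 (SE 0.20, adjusted p = 3.33e-05 from limma). Mal (25263), a small membrane protein of lipid rafts found in myelin and in some epithelia and T cells, was at 27.62, 34.58 and 24.84 TPM in intact, 17.98, 14.30 and 19.19 TPM in sham and 0.98, 0.92 and 1.23 TPM in pMx libraries. On the log2(TPM + 1) scale it had the largest decrease of the 29 genes (log2 fold change -3.14, SE 0.15, adjusted p = 1.09e-05 from limma), and the sham libraries also lay below the intact ones. Cldn19 (298487), a claudin of the tight junctions within myelin, was at 1.95, 1.23 and 2.00 TPM in sham and 0.26, 0.35 and 0.23 TPM in pMx libraries (log2 fold change -1.08, SE 0.22, adjusted p = 0.00499 from limma). Its fold change was -0.94 after quantile normalization, short of the threshold.

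Prx and Drp2 encode periaxin and its partner dystrophin-related protein 2, which tie the outer Schwann cell membrane to the basal lamina. Prx was at 13.13, 9.93 and 12.08 TPM in sham and 4.78, 5.63 and 5.76 TPM in pMx libraries, with a log2 fold change of -0.99 just short of the threshold (adjusted p = 0.00446 from limma). It passed in 3 of 9 fits with 1 library removed, at -1.09 without sham replicate 2, -1.02 without pMx replicate 2 and -1.03 without pMx replicate 3. The log2 fold change of Drp2 was -0.71, with an adjusted p of 0.00885 from limma. In the pMx group Prx kept 46.0% and Drp2 45.7% of the sham mean, while Mbp kept 11.7%. The most abundant gene of the group, Pmp22 (peripheral myelin protein 22, also made by fibroblasts), was at 370.66, 318.66 and 378.79 TPM in sham and 215.81, 213.33 and 212.15 TPM in pMx libraries. It kept 60.0% of its sham mean (log2 fold change -0.73, adjusted p = 0.00105 from limma). Cnp, a phosphodiesterase of non-compact myelin, kept 68.8% (log2 fold change -0.53, adjusted p = 0.00332 from limma). Among the sheath genes, the pMx level was closest to the sham level for these 2 broadly expressed genes and for Egr2. Egr2, the myelin transcription factor, was at 5.56, 4.59 and 3.98 TPM in sham and 3.51, 3.22 and 4.35 TPM in pMx libraries with overlapping groups (log2 fold change -0.28, adjusted p = 0.199 from limma). Egr2 is also induced as an early response gene in immune and connective tissue cells.

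The remaining sheath genes were near or below 1 TPM in sham synovium and at or near 0 in the regenerating tissue. Mag, the adhesion protein of the inner myelin membrane, was at 0.52, 0.17 and 0.72 TPM in sham and 0, 0.05 and 0 TPM in pMx libraries. Ugt8, which makes the myelin lipid galactosylceramide, was at 1.24, 0.57 and 0.76 TPM in sham and 0, 0 and 0.07 TPM in pMx libraries. Fa2h, which hydroxylates the fatty acids of that lipid, was at 0.45, 0.50 and 0.84 TPM in sham and 0.05, 0.05 and 0.10 TPM in pMx libraries. Gjb1 (connexin 32, a gap junction channel of myelin) was at 0.30, 0.48 and 0.56 TPM in sham libraries and was listed at 0 in every pMx library. For each of these 4 genes the groups did not overlap. On the log2(TPM + 1) scale Ugt8 and Fa2h had log2 fold changes of -0.84 and -0.57 (adjusted p = 0.00467 and 0.004 from limma), while Mag did not pass (-0.51, adjusted p = 0.0566 from limma). With a pseudocount of 0.1 all 4 were called, Mag at -2.17, Ugt8 at -2.94 and Fa2h at -2.04, and 9 of the 12 sheath genes were called lower. No fold is given for Gjb1, and the median of the other 11 sheath genes was -0.73.

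The promoters of the set were examined because 22 of its genes were lower by the adjusted p. RefSeq promoters (assembly GRCr8) were matched by gene identifier for 21 of the 29 genes, and the 250 bases before each transcription start were searched on both strands. The expression values were aligned to another assembly, mRatBN7.2, so these positions serve only to locate the sequences. Sox factors such as Sox10 bind the core ACAAAG or ACAATG, and Egr factors such as Egr2 bind GTGGGCG and related letters, of which GGGGGCG was also searched. GGGGGCG overlaps the GC box of general promoters. A Sox core was found before 3 of the 21 genes (14.3%), against 18.1% of 13298 promoters of genes tested. An Egr motif was found before 5 of the 21 (23.8%), against 31.7%. The windows of the set thus held neither motif more often than those of the genes tested. Shown 5′ to 3′ with the motifs in capitals are the windows of Mal (chr3:135341424-135341673, minus strand), the sheath gene with the largest decrease on the log2(TPM + 1) scale, of Mag (chr1:95291045-95291294, minus strand), which has a Sox core, of Cldn19 (chr5:138148325-138148574, plus strand), which has both Egr spellings, and of the non-myelinating gene Scn7a (chr3:71846285-71846534, minus strand), which has 1 Egr motif. In the Mal window neither motif was present.
Mal: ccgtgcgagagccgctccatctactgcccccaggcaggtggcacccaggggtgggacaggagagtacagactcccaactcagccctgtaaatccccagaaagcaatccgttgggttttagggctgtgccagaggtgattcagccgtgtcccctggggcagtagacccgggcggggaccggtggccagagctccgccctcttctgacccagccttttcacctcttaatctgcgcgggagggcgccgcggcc
Mag: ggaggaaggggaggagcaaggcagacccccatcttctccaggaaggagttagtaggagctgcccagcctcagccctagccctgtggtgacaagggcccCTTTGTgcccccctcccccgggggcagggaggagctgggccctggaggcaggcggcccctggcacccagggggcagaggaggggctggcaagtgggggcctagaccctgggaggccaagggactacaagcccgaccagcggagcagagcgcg
Cldn19: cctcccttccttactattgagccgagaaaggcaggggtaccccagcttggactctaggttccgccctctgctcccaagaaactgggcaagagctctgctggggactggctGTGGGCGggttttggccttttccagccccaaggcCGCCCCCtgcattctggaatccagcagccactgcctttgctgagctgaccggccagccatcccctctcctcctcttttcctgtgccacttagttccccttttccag
Scn7a: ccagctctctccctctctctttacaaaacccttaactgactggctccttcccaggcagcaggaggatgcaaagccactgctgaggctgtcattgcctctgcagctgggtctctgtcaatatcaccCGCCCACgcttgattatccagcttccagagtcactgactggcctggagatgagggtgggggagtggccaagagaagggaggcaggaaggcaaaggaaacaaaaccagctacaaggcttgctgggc

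The genes of non-myelinating and repair Schwann cells did not move as one. In pMx versus sham, 3 of the 6 fell, 1 rose, 1 was lower by the adjusted p alone and 1 missed it, and the median log2 fold change was -0.95. Scn7a (64155), a sodium channel relative found in non-myelinating Schwann cells, was at 12.64, 14.72 and 9.34 TPM in intact, 6.22, 4.90 and 6.38 TPM in sham and 0.04, 0.14 and 0.17 TPM in pMx libraries. The 3 groups did not overlap, and pMx kept 2.00% of the sham mean (log2 fold change -2.61, SE 0.16, adjusted p = 2.75e-05 from limma). Gfra3 (84422), the receptor subunit for artemin, was at 5.21, 6.29 and 4.62 TPM in intact, 4.56, 3.6 and 3.58 TPM in sham and 0.24, 0.43 and 0.48 TPM in pMx libraries (log2 fold change in pMx versus sham -1.83, SE 0.13, adjusted p = 4.33e-05 from limma). Cdh19 (360835), a cadherin of the Schwann cell lineage from its precursors on, was at 2.68, 3.04 and 2.13 TPM in intact, 1.77, 1.88 and 1.82 TPM in sham and 0.11, 0.12 and 0.29 TPM in pMx libraries (log2 fold change -1.27, SE 0.11, adjusted p = 7.89e-05 from limma). For both genes the pMx group kept little of the sham mean, 9.80% for Gfra3 and 9.51% for Cdh19. L1cam, an adhesion molecule of axons and Remak cells, was at 1.02, 1.11 and 1.12 TPM in sham and 0.38, 0.37 and 0.30 TPM in pMx libraries (log2 fold change -0.63, adjusted p = 0.00157 from limma). Gfap, the intermediate filament of glia, was at 1.5, 0.97 and 1.51 TPM in sham and 0.67, 0.45 and 1.45 TPM in pMx libraries. These groups overlapped, since pMx replicate 3 was above a sham library, and the difference missed the test (log2 fold change -0.35, adjusted p = 0.195 from limma).

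Ncam1 (24586), the neural cell adhesion molecule, went the other way. Its level was 2.22, 3.57 and 3.45 TPM in intact, 7.70, 12.58 and 5.31 TPM in sham and 33.87, 35.99 and 27.73 TPM in pMx libraries. The 3 groups did not overlap. It rose in pMx versus sham by a log2 fold change of 1.88 (SE 0.27, adjusted p = 8.80e-04 from limma), and it was called whichever of the 9 libraries was removed. Ncam1 is a marker of repair and non-myelinating Schwann cells but is also made by muscle precursor cells, at nerve-muscle contacts and by mesenchymal cells of forming tissue. The 4 satellite cell and neuromuscular genes examined beside it (Pax7, Myf5, Chrna1 and Musk) summed to 1.73 to 5.08 TPM in intact, 1.13 to 6.82 TPM in sham and 1.37 to 7.40 TPM in pMx libraries. Of these, 1 was higher in pMx versus sham by the adjusted p alone, Musk (log2 fold change 0.54). Within the sham and pMx groups the libraries ranked by this sum as for Ncam1, but within the intact group they did not. The summed levels of 10 skeletal muscle markers ranked with Ncam1 in the same 2 groups only. The part of other cell types in the level of Ncam1 was not tested.

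All 6 lineage genes were lower in the pMx group by the adjusted p (18.9% of all genes), Erbb3 only narrowly. In all 6 every pMx library was below every sham library (29.0% of all genes). The median log2 fold change was -0.82, and 2 of the 6 fell past the fold threshold. Sox10 (29361) was at 3.33, 3.95 and 2.71 TPM in intact, 2.62, 2.47 and 2.48 TPM in sham and 0.16, 0.31 and 0.27 TPM in pMx libraries. The pMx mean was 9.78% of the sham mean (log2 fold change -1.50, SE 0.11, adjusted p = 4.74e-05 from limma). Because these pMx values lie far below 1 TPM, the fold change was -2.95 with a pseudocount of 0.1. S100b (25742), a calcium-binding protein of Schwann cells, was at 281.44, 160.67 and 125.78 TPM in intact, 238.16, 202.81 and 234.90 TPM in sham and 70.82, 64.43 and 83.13 TPM in pMx libraries (log2 fold change -1.62, SE 0.25, adjusted p = 0.00145 from limma). It kept 32.3% of its sham mean, about as much as the median of the set. The 8 adipocyte markers were all called lower in pMx versus sham. They summed to 9228, 5476 and 3529 TPM in intact, 6895, 6506 and 5781 TPM in sham and 373, 393 and 633 TPM in pMx libraries. Within the intact group the libraries ranked as for S100b, but within the sham and pMx groups they did not. The part of fat cells in the S100b level was not tested.

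Erbb3, the Schwann cell receptor for neuregulin 1, was at 12.79, 8.88 and 10.65 TPM in sham and 6.38, 7.13 and 5.63 TPM in pMx libraries and kept 59.2% of its sham mean (log2 fold change -0.67, adjusted p = 0.0374 from limma). It missed the adjusted p in 6 of the 9 fits with 1 library removed: without intact replicate 2 (0.0528), sham replicate 1 (0.123), sham replicate 3 (0.0934) or pMx replicates 1, 2 or 3 (0.0901, 0.0598 and 0.111). Lgi4, a secreted protein of Schwann cells that acts on axon sorting and myelination, was at 32.72, 36.84 and 28.94 TPM in intact, 20.95, 15.49 and 19.36 TPM in sham and 8.11, 9.36 and 9.38 TPM in pMx libraries. Its log2 fold change was -0.97 (SE 0.13, adjusted p = 6.13e-04 from limma), and it was called without sham replicate 2 (-1.09), without pMx replicate 2 (-1.0) and without pMx replicate 3 (-1.0). Pou3f1 (Oct6), the factor of Schwann cells about to myelinate, was at 0.37, 0.26 and 0.28 TPM in sham and 0.04, 0.04 and 0.08 TPM in pMx libraries. Foxd3, a factor of neural crest and early glia, was at 0.57, 0.76 and 0.66 TPM in sham and 0.04, 0.31 and 0.27 TPM in pMx libraries. Both were lower by the adjusted p (0.0105 and 0.00672 from limma), with log2 fold changes of -0.31 and -0.47 at levels below 1 TPM.

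Of the 5 genes of axon-glia contact, Cadm3 fell, Kcna1 was lower and Cadm4 higher by the adjusted p alone, and 2 missed the test. Cadm3 (360882) and Cadm4 encode nectin-like adhesion molecules that bind each other along myelinated internodes, Cadm3 mainly on the axon and Cadm4 mainly on the Schwann cell. Cadm3 was at 114.57, 123.65 and 83.85 TPM in intact, 96.30, 88.92 and 106.88 TPM in sham and 13.09, 13.21 and 19.29 TPM in pMx libraries (log2 fold change -2.62, SE 0.18, adjusted p = 3.40e-05 from limma). Its level in synovium was higher than that of Mbp in every intact and sham library. Cadm4 was at 9.06, 10.67 and 5.53 TPM in intact, 13.33, 15.55 and 10.61 TPM in sham and 21.13, 23.39 and 29.17 TPM in pMx libraries (log2 fold change 0.85, SE 0.23, adjusted p = 0.0188 from limma). Cadm4 missed the adjusted p without sham replicate 3 (0.0715) and without pMx replicate 3 (0.0672). Kcna1, a potassium channel subunit of the axon beside the node, was at 0.82, 0.62 and 0.82 TPM in sham and 0.01, 0.01 and 0.03 TPM in pMx libraries (log2 fold change -0.78, adjusted p = 0.00424 from limma). Gldn (gliomedin, a Schwann cell protein that gathers sodium channels at nodes) was at 2.46, 3.06 and 1.86 TPM in sham and 2.16, 3.02 and 2.49 TPM in pMx libraries, and the groups overlapped (adjusted p = 0.884 from limma). Nrxn3, a synaptic and glial adhesion molecule, stayed between 0.02 and 0.09 TPM in all 9 libraries, too low to compare.

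**Figure D2:**
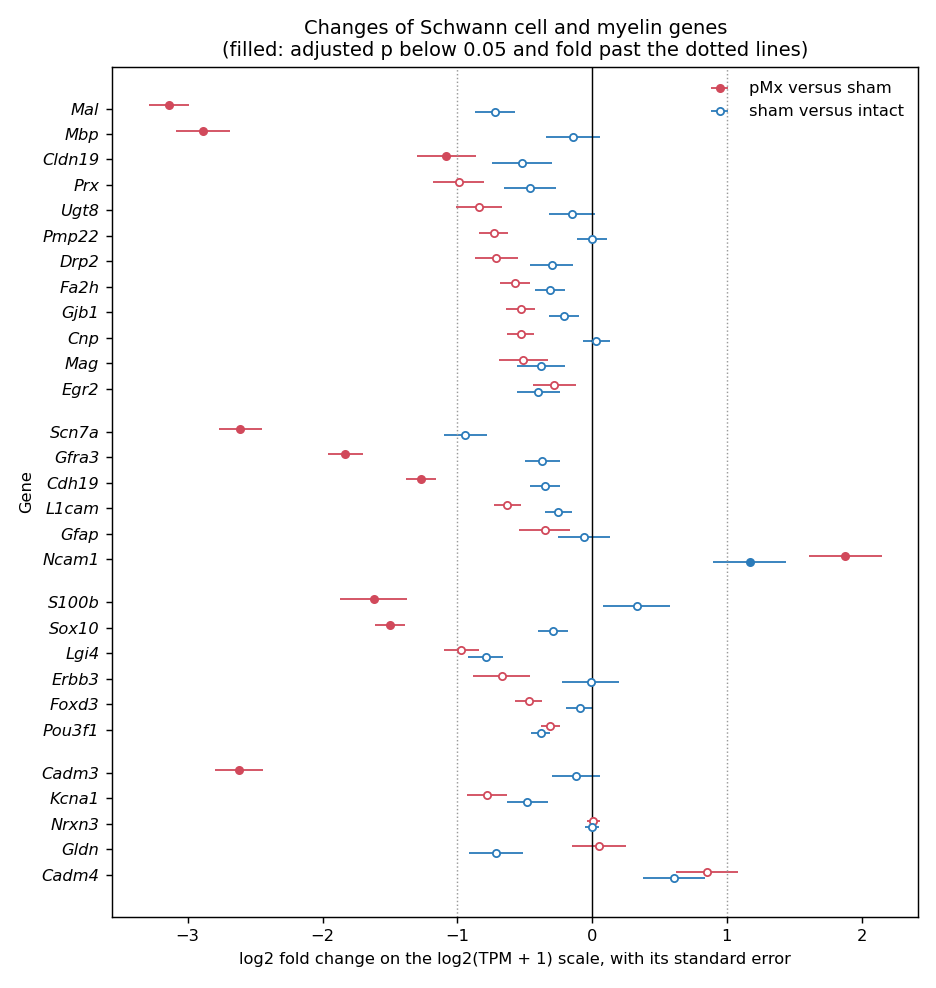
log2 fold change of each gene on the horizontal axis (log2(TPM + 1) scale, bars are standard errors) in pMx versus sham (red) and sham versus intact (blue), with genes ordered by role. Filled points passed both thresholds and dotted lines mark a log2 fold change of 1 in size; in pMx versus sham 9 genes fell and Ncam1 rose, and in sham versus intact Ncam1 alone passed. The comparisons share the sham libraries.

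Set side by side, the myelin sheath genes and the genes of non-myelinating and repair cells both held genes that fell. Of the former 3 of 12 and of the latter 3 of 6 fell (4.85% of all genes). With a pseudocount of 0.1 these counts were 9 and 4 (8.43% of all genes). The median pMx level was 13.9% of the sham mean for sheath genes and 21.0% for non-myelinating and repair genes. For lineage genes it was 31.8% and for genes of axon-glia contact 104%. On the log2(TPM + 1) scale the first 2 of these roles came in the reverse order, with median log2 fold changes of -0.72 and -0.95. The 104% was the value of Gldn, in a role that ranged from 2.21% for Kcna1 and 15.6% for Cadm3 to 187% for Cadm4. It also counts Nrxn3, which was too low to compare. No test of the difference between these roles was made. Apart from Ncam1, no gene of the non-myelinating and repair group was higher in the pMx group.

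Levels were also divided by that of Sox10 in the same library, to see which genes followed the lineage factor. This ratio was chosen after the values had been seen, it has no test, and the pMx denominators are only 0.16 to 0.31 TPM. Gfra3 followed Sox10 closely, with ratios of 1.56 to 1.70 in intact, 1.44 to 1.74 in sham and 1.39 to 1.78 in pMx libraries. Cdh19 had ratios of 0.770 to 0.805, 0.676 to 0.761 and 0.387 to 1.07 in the same order. Mbp was at 14.0 to 17.9 times the Sox10 level in intact, 18.0 to 20.3 times in sham and 19.4 to 34.1 times in pMx libraries, so that its pMx range overlapped that of sham. Scn7a went down beyond Sox10, from 3.45 to 3.80 in intact over 1.98 to 2.57 in sham to 0.25 to 0.63 in pMx libraries, with no overlap. The myelin gene Ncmap, described below, was also lower, at 3.52 to 5.41 times Sox10 in sham and 1.56 to 2.88 times in pMx libraries. Mal (5.79 to 7.74 and 2.97 to 6.12 times) and Pllp (1.23 to 1.4 and 1.0 to 5.06 times) overlapped between sham and pMx libraries. The ratio was higher in pMx libraries for Erbb3, at 3.6 to 4.88 times Sox10 in sham and 20.9 to 39.9 times in pMx libraries. The same held for Lgi4 (6.27 to 8.0 and 30.2 to 50.7 times), Pmp22 (129 to 153 and 688 to 1349 times) and Ncam1 (2.14 to 5.09 and 103 to 212 times). It also held for S100b, a gene that fell (82.1 to 94.7 and 208 to 443 times). For Cadm3 the ranges overlapped (36.0 to 43.1 and 42.6 to 81.8 times).

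**Figure D3:**
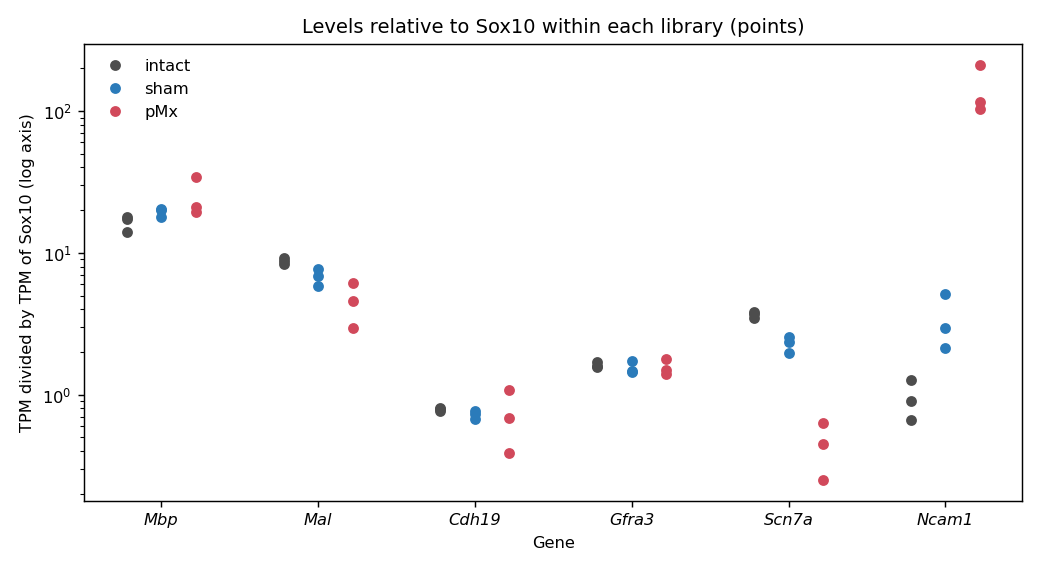
TPM of 6 genes divided by the TPM of Sox10 in the same library, on a log axis. Each point is 1 library of the intact (grey), sham (blue) or pMx (red) group; Gfra3 stays between 1.39 and 1.78 in all 9 libraries, Scn7a goes down to 0.25 to 0.63 in the pMx libraries and Ncam1 up to 103 to 212.

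In sham versus intact, 1 week after opening the capsule alone, 1 of the 29 genes was called higher and none lower (1.42% and 0.533% of all genes). With the adjusted p from limma alone, 4 were lower (5.97% of all genes) and 1 higher (6.73%). The 4 were Scn7a, Lgi4, Mal and Pou3f1, with log2 fold changes of -0.94, -0.79, -0.72 and -0.38 (adjusted p = 0.0118, 0.00946, 0.02 and 0.0147 from limma). Their sham means were 47.7%, 56.6%, 59.1% and 43.3% of the intact means. Mal missed the adjusted p without intact replicate 2 (0.0552), sham replicate 1 (0.0593) or sham replicate 2 (0.0742), and Pou3f1 without sham replicate 2 (0.0613). Scn7a passed the fold threshold without intact replicate 3 (-1.11). In 11 of the 29 genes every sham library was below every intact library, against 16.4% of all genes, Sox10, Cdh19, Gfra3 and Gldn among them. Gldn was at 4.43, 6.19 and 3.48 TPM in intact libraries, and its difference did not pass (log2 fold change -0.71, adjusted p = 0.0511 from limma). Levels of Mbp, Pmp22, Cnp, Cadm3 and Erbb3 overlapped between sham and intact libraries. Ncam1 rose by 1.17 (SE 0.27, adjusted p = 0.0277 from limma). That call was lost without intact replicate 1 (log2 fold change 1.01, adjusted p = 0.0618 from limma), intact replicate 2 (1.26, 0.0567), sham replicate 1 (1.2, 0.0769) or sham replicate 2 (0.88, 0.0677).

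In pMx versus intact, 13 of the 29 genes were called lower and 2 higher (7.89% and 6.40% of all genes). To the 9 genes lower in pMx versus sham this added Prx, Drp2, Lgi4 and Kcna1, with log2 fold changes of -1.44, -1.01, -1.76 and -1.26. The higher genes were Ncam1 and Cadm4, with log2 fold changes of 3.05 and 1.47 (adjusted p = 3.18e-05 and 7.91e-04 from limma). The call of Drp2 was lost without intact replicate 2 (-0.84) and without pMx replicate 3 (-0.96), and that of S100b without intact replicate 1 (-0.96). With the adjusted p alone 25 were lower (27.1%) and 2 higher (23.4%). Every pMx library was below every intact library in 25 of the 29 genes, against 30.6% of all genes, and above in 2 (26.9%). Gfap was the gene of the set besides Nrxn3 whose pMx and intact libraries overlapped.

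Other genes of peripheral nerve were examined in 5 lists. Of all genes tested, 4.85% were called lower and 3.36% higher in pMx versus sham. Of 8 other myelin genes, 2 fell in this comparison, Ncmap and Pllp, and none rose. Ncmap, a protein of non-compact myelin, was at 11.58, 23.04 and 10.18 TPM in intact, 9.23, 9.80 and 13.41 TPM in sham and 0.46, 0.59 and 0.42 TPM in pMx libraries (log2 fold change -2.97, SE 0.27, adjusted p = 1.11e-04 from limma). All pMx libraries were far below the other 6. Pllp (plasmolipin) was at 3.21, 3.35 and 3.47 TPM in sham and 0.81, 0.63 and 0.27 TPM in pMx libraries, with a log2 fold change of -1.48. Nab2 and Nab1, cofactors of Egr2 and the most abundant genes of this list, both missed the test. The limma adjusted p was 0.191 for Nab2 (log2 fold change 0.19) and 0.909 for Nab1 (-0.02). Of 9 other repair genes tested, 1 fell, Ngfr, the low-affinity neurotrophin receptor of repair and immature Schwann cells, at 4.19, 4.99 and 4.29 TPM in sham and 0.94, 1.59 and 2.29 TPM in pMx libraries (log2 fold change -1.10, adjusted p = 0.00812 from limma). Jun, the transcription factor that drives the repair state and is active in many other cells, was at 114.13, 137.15 and 142.11 TPM in sham and 88.89, 85.21 and 88.73 TPM in pMx libraries (-0.57, adjusted p = 0.0432 from limma). None of the 9 was called higher. By the adjusted p 4 were lower (18.9% of all genes), Ngfr and Jun among them, and 1 was higher (17.7%). Among 11 ligands and partners of the set, Cntn2, an axonal and glial partner of potassium channels, and Cadm2, an axonal relative of Cadm3, fell (-1.42 and -1.13). By the adjusted p alone 6 of the 11 were lower and 3 higher (18.9% and 17.7% of all genes). The largest increase was that of Nrg1, the neuregulin that binds Erbb3, at 0.2, 0.2 and 0.1 TPM in sham and 1.9, 1.33 and 0.63 TPM in pMx libraries (0.93, adjusted p = 0.00402 from limma). Nrcam, an adhesion molecule of nodes, was also higher (0.54, adjusted p = 0.00195 from limma). The most abundant of them were Erbb2, the co-receptor of Erbb3, at 6.45 ± 0.884 TPM in sham and 9.20 ± 0.794 TPM in pMx (SD, n = 3 each; adjusted p = 0.0152 from limma), and Ret, the partner of Gfra3, at 5.35 ± 0.175 and 5.44 ± 1.21 TPM (SD, n = 3 each).

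Of 10 genes known from axons, 5 rose in sham versus intact (1.42% of all genes), Stmn2, Nefh, Tubb3, Uchl1 and Gap43. Which cells made these transcripts was not tested. In pMx versus sham 2 of the 10 rose (3.36% of all genes), Uchl1 and Tubb3, Stmn2 fell (4.85%), and 7 were not called. Stmn2, a growth-associated microtubule protein of neurons, was at 2.83, 3.74 and 3.24 TPM in intact, 10.81, 11.55 and 14.65 TPM in sham and 1.44, 2.33 and 3.99 TPM in pMx libraries. It was thus highest in all sham libraries (log2 fold changes 1.64 in sham versus intact and -1.95 in pMx versus sham). Uchl1, a ubiquitin hydrolase of neurons that other cells can also make, was at 3.83, 5.2 and 3.75 TPM in intact, 12.09, 14.13 and 6.93 TPM in sham and 55.46, 60.44 and 53.86 TPM in pMx libraries, and Tubb3, a neuronal tubulin also made by dividing cells, increased in the same order. Nefh, a neurofilament chain, was at 0.11, 0.25 and 0.06 TPM in intact, 1.86, 2.08 and 1.5 TPM in sham and 4.61, 3.13 and 2.46 TPM in pMx libraries. The other neurofilament genes Nefl and Nefm reached at most 0.46 and 0.26 TPM. Of 6 genes of the perineurial and endoneurial sheath cells, Cldn1 and Etv1 fell in pMx versus sham (log2 fold changes -1.41 and -1.30), and Itgb4 and Osr2, the most abundant, were lower by the adjusted p alone (-0.73 and -0.30). Slc2a1, the glucose transporter of perineurial and many other cells, went the other way, from 21.52, 22.24 and 20.12 TPM in sham to 34.89, 35.6 and 38.18 TPM in pMx libraries (0.74, adjusted p = 9.70e-04 from limma).

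**Figure D4:**
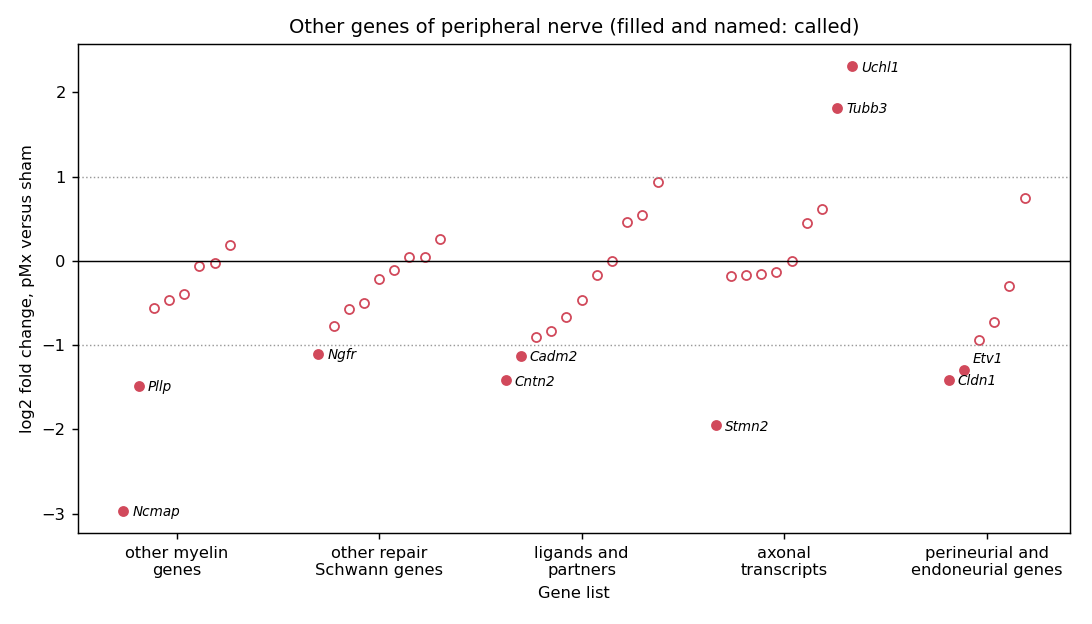
log2 fold change in pMx versus sham (vertical axis, log2(TPM + 1) scale) of other genes of peripheral nerve in 5 lists. Each point is 1 gene, filled and named where it passed both thresholds, and dotted lines mark a log2 fold change of 1 in size; Ncmap is lowest at -2.97 and Uchl1 highest at 2.31.

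The libraries and the other cell types of the tissue set limits to these comparisons. Pearson correlations between libraries across genes were 0.954 to 0.996 within groups, and no depth is known from TPM. Intact replicate 3 was the lowest intact library for 25 of the 29 genes and for 60.5% of all genes, and its 10 skeletal muscle markers summed to 37038 TPM, against 70.7 to 2367 TPM in the other libraries. None of the muscle markers was called in any comparison. Their levels spread so widely within groups that these tests could hardly call them (SE 2.48 for Ckm and 2.63 for Acta1 in pMx versus sham). The part of muscle in the results was not tested. In pMx versus sham, none of the 6 endothelial, 5 T cell and 4 satellite cell and neuromuscular genes was called, and 2 of 7 chondrocyte genes (Acan and Hapln1) were called higher. By the adjusted p alone Matn3 was also higher (0.93), while Cnmd was lower (-0.83) and listed at 0 in every pMx library. The remaining 3 chondrocyte genes missed it, among them Col2a1 at 0.953 TPM in sham and 0.697 TPM in pMx. By the adjusted p alone 3 of the 6 endothelial genes were lower, Emcn (-0.87), Vwf (-0.69) and Tek (-0.56). Kdr (0.42) and Cdh5 (0.33) went the other way, with every pMx library above every sham library, but missed the adjusted p. Pecam1 (-0.17) overlapped between the groups, and the part of endothelial cells in the results was not tested. Of 4 melanocyte genes, which share Sox10 and Erbb3 with Schwann cells, Mlana was lower (36.9 ± 1.35 TPM in sham and 7.89 ± 2.44 TPM in pMx, SD, n = 3 each), while Dct stayed at or below 0.06 TPM. The other melanocyte genes did not pass the test, Pmel at 2.52 TPM in sham and 2.06 TPM in pMx (adjusted p = 0.172 from limma) and Tyrp1 at 0.0967 and 0.313 TPM (adjusted p = 0.0706 from limma). The 3 keratinocyte and epithelial genes tested, of interest for Mal and Fa2h, were not called. In the study's quality table the RNA integrity was lowest in intact, higher in sham and highest in pMx samples, and its part in the results was not tested. The RNA integrity and the tissue taken cannot be told apart from the surgery.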

How the data were processed

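Total RNA of 9 rat samples was used, with poly-A RNA captured on oligo-dT beads and a dUTP second strand. The authors deposited TPM values for 17602 genes with 2 decimals, and each library sums to 1000000. The submitters' processing notes name HISAT2 2.0.4 and the assembly mRatBN7.2, the methods name Dr. Tom (BGI), and the counting tool, annotation and filters are not given in the sources used here. TPM keeps no read numbers, so no depth or counting error is known and the precision is the spread of 3 replicates. A rise of a few abundant genes lowers the TPM of all others.

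Groups came from the sample titles. Genes above 0 TPM in at least 3 libraries (16512) were analysed as log2(TPM + 1) in limma 3.58.1 (R 4.3.3), with 1 mean per group over all 9 libraries, eBayes with a mean-variance trend and Benjamini-Hochberg adjustment over all genes for each of 3 comparisons. On simulated data of 16512 genes for pMx versus sham, 98.5% of 200 genes changed by 2 on the log2 scale were called, with 0 false calls. These 200 were drawn only from genes with a mean log2(TPM + 1) above 2 and a small spread. The rate therefore does not cover the many genes of the set near or below 1 TPM. Genes were matched to RefSeq (GRCr8) by gene identifier (17419 of 17602). Tables and figures were made in Python 3.11.15 with pandas 2.3.3, NumPy 2.4.6 and Matplotlib 3.10.9.

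The members and all gene lists (roles, nerve genes and markers of adipocytes, muscle, satellite cells, melanocytes, endothelium, T cells, chondrocytes and epithelium) were chosen with earlier results of these data known. Every member was named or counted. From the nerve lists, called genes (at most 4 a list by size) and the 2 with the highest mean TPM were named, and Gap43, Nefl, Nefm, Slc2a1, Nrg1, Nrcam and Musk were added after their values were seen, as were marker genes other than the 2 most abundant of a list. No set test was run. Some genes of the nerve lists are not reported here. Alternatives were other pseudocounts, filters, scalings, eBayes settings, thresholds, a fit over 6 libraries, a replicate block and leaving out each library.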

Additional observations from a re-analysis of the deposited data

How the results depend on the processing

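The counts of calls moved most with the pseudocount and the fold threshold. Counts of genes called lower in pMx versus sham went from 9 to 20 with a pseudocount of 0.1 and to 20 with 0.01, and to 22 with the adjusted p alone. For myelin sheath genes they went from 3 to 9, 9 and 10. In pMx versus intact the genes called lower went from 13 to 20, 20 and 25, and in sham versus intact from 0 to 1 with a pseudocount of 0.1 and to 4 with the adjusted p alone. With the adjusted p alone 2 genes were higher in pMx versus sham. The 1 gene higher in sham versus intact, Ncam1, was lost (0 genes) in the fit over 6 libraries and at an adjusted p below 0.01. The non-myelinating and repair genes called lower in pMx versus sham were 3 to 4 throughout.

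When single libraries were removed, the genes called lower ranged from 9 to 11 for pMx against sham, from 0 to 1 in sham versus intact and from 12 to 15 in pMx versus intact, and those called higher were 1, 0 to 1 and 2. Of the fold changes of the set, 48 were followed through the alternatives, and none of these changed sign. Gldn and Nrxn3 in pMx versus sham, at 0.05 and 0.01 in the main fit, were not among them. The median of the axon-glia contact genes in that comparison went from 0.01 to -0.08 without sham replicate 3, so at least 1 gene of this role did change sign. Of the 48, 1 call was lost with median-of-ratios rescaling and 2 with quantile normalization (Cldn19 in pMx versus sham, Drp2 in pMx versus intact).

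The libraries carry replicate numbers, but the deviations of same-numbered libraries correlated between -0.664 and 0.485, so the numbers were not taken as pairs. With the replicate number as a block, 9 genes were called lower and 1 higher for pMx against sham, 0 and 1 for sham against intact and 13 and 2 for pMx against intact, as without it, and none of the 48 calls changed. In pMx and sham, 5 of 6 libraries correlated best with their own number, and in both comparisons with intact 0 of 6 did. Without read numbers, values of a few hundredths of a TPM cannot be told from 0.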
